A study of Mus musculus with 6 samples.

Results

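The genes from Zfp500 to Zfp999 were examined, a large set of mouse C2H2 zinc finger genes, as they were expressed in motor neurons (MNs) derived from control and spinal muscular atrophy (SMA) mouse embryonic stem cells (mESCs). The members were all gene symbols of Zfp plus a number in that range, with or without a final letter, and there were 183 of them among 34433 symbols. Hb9 mESCs (SMN2+/+;mSmn+/+, labelled wild type) and A2 mESCs (SMN2+/+;mSmn-/-) both carry the human SMN2 transgene and an HB9:eGFP reporter, in which the promoter of the MN gene Hb9 (Mnx1) drives GFP, and both are on the FVB/N background. Embryoid bodies of each line were exposed for 5 days to 1 µM retinoic acid and 1 µM Smoothened agonist, and the cells that were positive for GFP were sorted and sequenced in 3 samples per genotype. Each genotype is represented by 1 cell line, so genotype and line cannot be told apart. The table holds 1 FPKM value (fragments per kilobase of exon scaled to the mapped fragments of the library) per genotype and gene, combined by the authors from the 3 samples. There is therefore no replicate check, no SD and no test behind any difference given here, and a gene counts as called only when its FPKM differed at least 2-fold. The words higher and lower without a fold give only the direction of the 2 values.

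C2H2 zinc finger proteins read DNA with a row of short fingers, each folded around a zinc ion that is held by a pair of cysteines and a pair of histidines. Many of them also carry a KRAB box near the N-terminus, which binds the corepressor TRIM28 (KAP1) and through it brings the histone methyltransferase SETDB1 and heterochromatin proteins to the bound site. KRAB zinc finger genes lie in clusters of close copies, and a large part of the family is known for silencing retroelements in embryonic stem cells. Other C2H2 proteins without a KRAB box act in neural development, in chromatin complexes or on ribosomes.

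The fingers are what the members share in sequence. Of the 183 members, 180 were matched to a coding sequence in GENCODE M21 and translated, and the spacing of 2 to 4 residues, 12 residues and 3 to 5 residues between the cysteines and histidines was searched. The median was 10 fingers per protein (quartiles 7 and 13) with the most, 33, in Zfp619. At least 3 fingers were found in 160 members, and none matched in 7, among them Zfp503, Zfp703 and Zfp750. The coding stretch of 1 finger and its linker, 84 bases with the codons of the zinc-binding cysteines and histidines in capitals, is shown for 3 members that were higher in A2 SMA (Zfp936, Zfp819, Zfp568) and 2 that were lower (Zfp536, Zfp629). The stretches begin at base 535, 1240, 1261, 394 and 535 of the respective coding sequences.
Zfp936: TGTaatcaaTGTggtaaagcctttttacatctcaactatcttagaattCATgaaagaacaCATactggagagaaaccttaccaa
Zfp819: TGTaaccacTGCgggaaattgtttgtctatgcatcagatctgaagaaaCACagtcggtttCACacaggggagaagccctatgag
Zfp568: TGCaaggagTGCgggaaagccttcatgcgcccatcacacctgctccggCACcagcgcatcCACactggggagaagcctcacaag
Zfp536: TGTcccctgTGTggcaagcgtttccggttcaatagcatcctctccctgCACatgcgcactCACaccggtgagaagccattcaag
Zfp629: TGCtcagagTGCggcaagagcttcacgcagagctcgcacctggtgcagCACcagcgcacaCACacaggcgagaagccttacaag

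The KRAB box is the feature that divides the set. A strict KRAB pattern in the first 200 residues was found in 78 of the 180 proteins. A wider pattern, which was chosen after the coding sequences had been read, was found in 104. Members described as without a KRAB box are those that did not match, and a box of another sequence could be missed. The stretches of 54 bases around the wider match, with the matched codons in capitals, are given for the same 3 genes that were higher and for Zfp811, the KRAB member with the largest FPKM among those at least 4-fold lower. They lie at bases 13 to 66 in both Zfp936 and Zfp811, 82 to 135 in Zfp819 and 373 to 426 in Zfp568.
Zfp936: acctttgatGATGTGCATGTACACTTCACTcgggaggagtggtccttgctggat
Zfp819: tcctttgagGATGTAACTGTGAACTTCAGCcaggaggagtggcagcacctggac
Zfp568: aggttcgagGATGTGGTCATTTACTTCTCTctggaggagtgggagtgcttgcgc
Zfp811: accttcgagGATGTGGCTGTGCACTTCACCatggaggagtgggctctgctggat

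The labels of the samples were checked first. Smn1 (chr13:100894806-100907645, NCBI m37) had 137 FPKM in Hb9 and 5.26 in A2, 25.9-fold lower. Mnx1, whose promoter drives the reporter, was at similar FPKM in both (41.2 and 44.2). The other MN markers were not: 5 of the 6 measured at 1 FPKM or more in either genotype were at least 2-fold lower, and Chat and Lhx3 were at 0.344 and 0.348 FPKM in A2 SMA MNs against 15.5 and 27.6 in Hb9 control MNs. Summed FPKM was 216 in Hb9 and 52.5 in A2 over these 6 MN markers, 1192 and 130 over 7 pan-neuronal markers, and 897 and 42.5 over 6 neural progenitor markers. Of the progenitor markers 5 were at least 2-fold lower, with Fabp7 the largest at 553 and 5.52 FPKM. Pax6 was nearly level at 22.4 and 21.4 FPKM. Slc18a3, Tubb3, Map2 and Sox1 were listed but not analysed here. All 10 pluripotency markers were at least 2-fold higher, with a sum of 282 in Hb9 and 1849 in A2. The sum of 7 fibroblast markers (the mESCs were kept on fibroblast feeders) was 63.6 and 32.4, with Thy1 and Dcn higher. No marker was at 0 in either genotype. The marker lists compare the same 2 cell lines as all results below, and their part in those results was not tested. In bulk RNA fewer cells of a type and less RNA per cell cannot be told apart.

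Most members were expressed at low to moderate levels. A level of 1 FPKM in Hb9 or A2, with a value above 0 in each, was reached by 164 of the 183, which lie in 161 rows of the table because some rows name several genes. Their Hb9 values had a median of 10.1 FPKM (quartiles 3.8 and 19.6) and their A2 values 6.01 FPKM (quartiles 2.57 and 12.5), where all 15784 genes that passed the same filter had medians of 18.5 and 13.4. At least 30 FPKM was reached by 15.9% of these members in Hb9 and 11.6% in A2, against 36.9% and 31% of all genes. The order of the members was much the same in both genotypes (Spearman rho 0.89 over the 164 genes, which share the same 2 pooled libraries).

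The 6 most abundant members differed in direction. Zfp664 had the highest level in Hb9 control MNs, 120 FPKM, and stood at 57.7 FPKM in A2, 2.08-fold lower. Zfp740 was nearly level, at 89.3 and 82.1 FPKM, and took the top place in A2. Zfp523, the mouse counterpart of human ZNF76, was at 68.3 and 30.9 FPKM, 2.21-fold lower. Zfp513 was at 56.8 FPKM in Hb9 and 41.2 in A2. Zfp568 and Zfp961 went the other way, from 26.2 to 59.5 FPKM and from 32.1 to 57.7 FPKM. By A2 levels those last genes stood within 2 FPKM of Zfp664, which exceeded them more than 3-fold in Hb9.

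**Figure D1:**
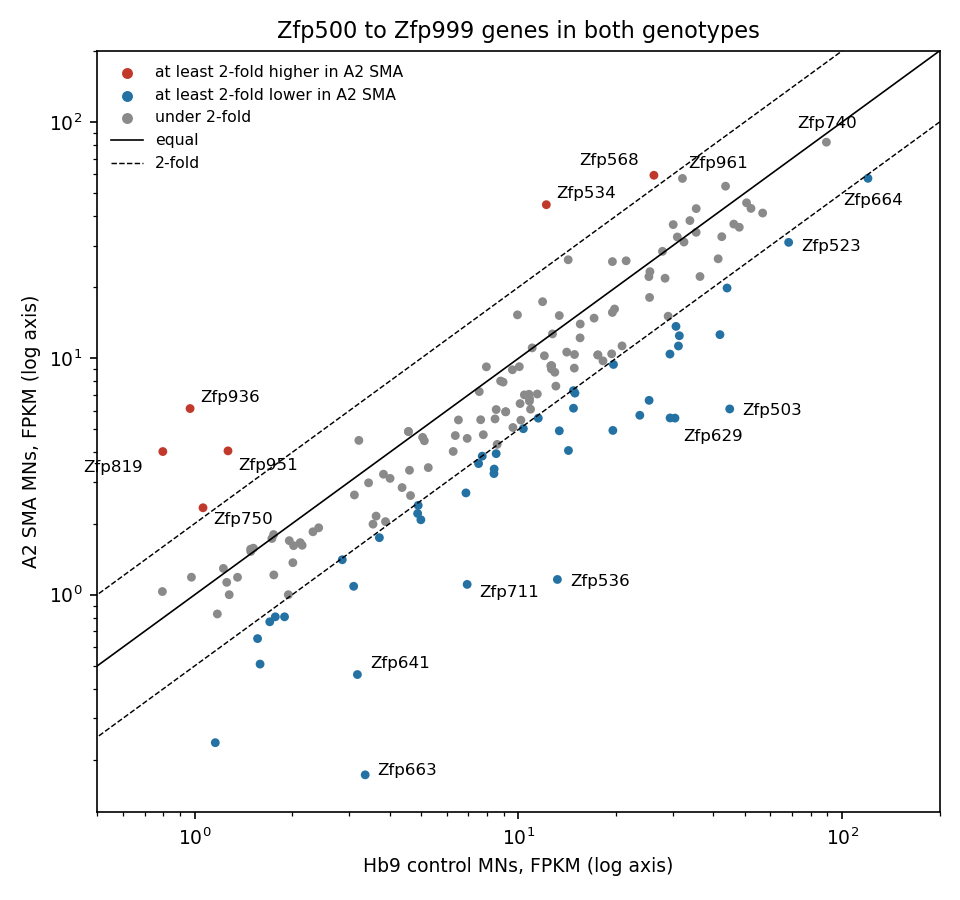
FPKM in Hb9 control MNs (x) and A2 SMA MNs (y) on log axes for the 164 members from Zfp500 to Zfp999 past the limit of 1 FPKM, 1 point per gene and no replicates. The solid line marks equal values and the dashed lines 2-fold. The 44 blue points lie below the lower dashed line or on it, and the 6 red points, of which 4 are under 2 FPKM in Hb9, lie above the upper one.

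The members as a set were lower in A2 SMA MNs. Of the 164, 133 (81.1%) had a lower FPKM in A2, where 65.9% of all genes did. At least 2-fold lower were 44 (26.8%), against 22.2% of all genes, and at least 2-fold higher were 6 (3.66%), against 6.78%. The median log2 ratio of A2 over Hb9 was -0.50 (quartiles -1.03 and -0.13), and 79 members differed by less than 1.5-fold either way. Over all genes the median log2 ratio was itself -0.29, a shift shared by the table as a whole. Relative to that median the members stood at -0.21, 107 of the 164 (65.2%) were below it, 22 (13.4%) were at least 2-fold lower against 16.5% of all genes, and 8 (4.88%) at least 2-fold higher against 10.3%. On that scale Zfp518a and Zfp961 join the 6 members called higher. Of the 164 members, 9 were under 1 FPKM in A2 and 4 in Hb9, and so passed the limit only through the other genotype. Among the 151 at 1 FPKM or more in both, without scaling, 36 (23.8%) were at least 2-fold lower and 4 (2.65%) higher. The shares of all genes at this stricter limit are not given here.

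At least 4-fold lower were 9 of the 164 members (5.49%) and at least 4-fold higher 2 (1.22%), where 8.81% and 1.77% of all genes were. Some of these members passed the limit only through the genotype where they were high. Of the 151 members at 1 FPKM or more in both genotypes, 6 (3.97%) were at least 4-fold lower and 0 higher. By level of expression, the median log2 ratio was -0.37 for the 51 members that peaked at 1 to 5 FPKM, -0.61 for the 71 at 5 to 20 FPKM and -0.38 for the 42 at 20 FPKM and over. All genes of the same levels had medians of -0.33, -0.38 and -0.24, so the difference from them was small at the lowest levels. The members were also close to the rest of the Zfp series. The 161 genes from Zfp1 to Zfp499 that passed the filter had a median of -0.52, with 78.3% lower, 46 (28.6%) at least 2-fold lower and 6 (3.73%) at least 2-fold higher.

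**Figure D2:**
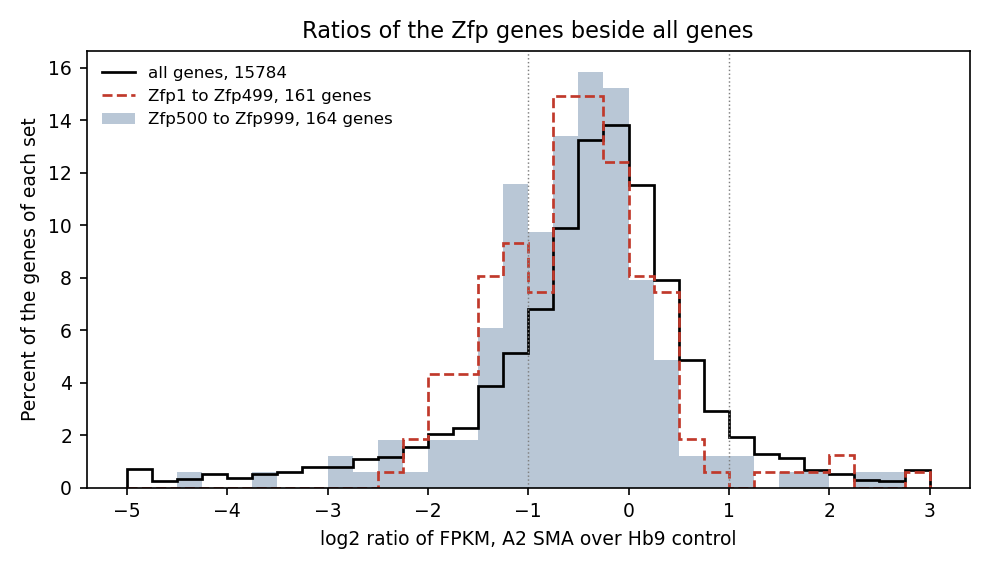
Percent of genes (y) by log2 ratio of A2 SMA over Hb9 control FPKM (x, bins of 0.25, the end bins also hold values beyond them) for Zfp500 to Zfp999 (bars), Zfp1 to Zfp499 (dashed red) and all genes (black), with dotted lines at 2-fold. Both Zfp sets peak left of all genes, with medians of -0.50 and -0.52 against -0.29.

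Of the 6 members at least 2-fold higher in A2 SMA MNs, 5 had a KRAB box by the wider pattern and 4 by the strict one. Zfp936, with 11 fingers, was at 0.968 FPKM in Hb9 and 6.13 in A2, 6.34-fold higher. Zfp819, known from pluripotent cells as a repressor of endogenous retroelements, was at 0.797 and 4.03 FPKM, 5.06-fold higher. Both were thus near or under 1 FPKM in Hb9 control MNs, where a ratio rests on little signal. Zfp951 was at 1.27 and 4.06 FPKM, 3.2-fold higher, and Zfp750, an epidermal differentiation factor with no KRAB box, at 1.06 and 2.33 FPKM, 2.2-fold higher. The other two were abundant. Zfp534 was at 12.2 and 44.7 FPKM, 3.66-fold higher, in a row that it shares with 2610305D13Rik, and 70.4% of its 50-base stretches also occur in transcripts of other genes, so the value cannot be assigned to Zfp534 alone. Zfp568, a KRAB protein required in the early embryo that represses a placental Igf2 transcript, was at 26.2 and 59.5 FPKM, 2.27-fold higher. Its row has the status FAIL, with which Cuffdiff marks a gene whose test could not be completed.

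The members with the lowest ratios were of mixed kinds. Zfp663 had the lowest, from 3.36 FPKM in Hb9 to 0.173 in A2, 19.4-fold lower. Zfp536, which is known to act in neuronal differentiation, was at 13.2 and 1.16 FPKM, 11.4-fold lower. Zfp503 (also Nolz1), a corepressor of the developing striatum and spinal cord, was at 44.9 and 6.11 FPKM, 7.35-fold lower. Zfp663 was low in both genotypes, and Zfp536 and Zfp503 were above the median member in Hb9. Zfp641 was at 3.18 and 0.46 FPKM, Zfp711, an X-linked gene tied to intellectual disability in humans, at 6.94 and 1.11, and Zfp629 at 30.4 and 5.59 FPKM. The remaining members at least 4-fold lower were Zfp579, Zfp811 and Zfp939, of which Zfp939 (1.16 and 0.237 FPKM) is named here after its values were seen. Of the 42 members that reached 20 FPKM in Hb9 or A2, 13 (31%) were at least 2-fold lower and 2 higher, where 16.6% and 3.92% of all genes at those levels were.

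Members with a role in development were lower where they passed the filter. The list held 9 members, of which 7 passed, and these 7 were lower, 5 of them at least 2-fold, where 65.9% of all genes were lower and 22.2% at least 2-fold (median log2 ratio -1.98, or -1.7 relative to the median gene). Besides Zfp536, Zfp503 and Zfp711, Zfp703, the close relative of Zfp503, was at 30.6 and 13.7 FPKM, and Zfp608 at 19.6 and 4.95 FPKM. Zfp521, which takes part in the neural differentiation of mESCs, was at 10.9 and 6.09 FPKM, and Zfp609 was nearly level at 25.5 and 23.3 FPKM. Zfp804a and Zfp804b were under 1 FPKM in both genotypes (0.186 and 0.0464, and 0.0198 and 0.0348). The summed FPKM of the 7 genes was 152 in Hb9 and 56.4 in A2. The 7 pan-neuronal markers and 5 of the 6 progenitor markers were at least 2-fold lower beside this list, and Pax6 was nearly level.

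The list of embryonic stem cell and retroelement silencing genes went in both directions. Of the 8 that passed the filter, 5 were higher, 4 of them at least 2-fold, and 3 were lower, none 2-fold (median log2 ratio 0.79). Of all genes 6.78% were at least 2-fold higher, 22.2% at least 2-fold lower and 65.9% lower by any amount. The 4 were Zfp819, Zfp534, Zfp951 and Zfp568. Of these, Zfp819 was under 1 FPKM in Hb9, and the row of Zfp568 has the status FAIL. Zfp534 shares its row with another gene and 70.4% of its 50-base stretches with other genes. Zfp809, which recognises the primer binding site of murine leukaemia virus in mESCs, was at 19.5 and 25.7 FPKM, in a row with the status FAIL. Zfp706 (17.1 and 14.8 FPKM), Zfp708 (3.63 and 2.15) and Zfp932 (1.17 and 0.829) were lower, but every 50-base stretch of Zfp708 and 55.5% of those of Zfp932 also occur in other annotated genes. Zfp600 was at 0.0319 and 0.119 FPKM, and 85% of its stretches also occur in other genes. Zfp981 and Zfp982 were not analysed here. All 10 pluripotency markers were higher beside this list.

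Members that work in chromatin complexes had log2 ratios on both sides of that of the median gene. Zfp532, Zfp592 and Zfp687, which act together with Zmynd8, were at 50.6 and 45.5, 28.4 and 21.8, and 48.1 and 35.8 FPKM in Hb9 and A2. Zfp644, a partner of the G9a methyltransferase, was at 42.5 and 32.7 FPKM, and Zfp652 at 35.4 and 34.1 FPKM in a row shared with Phospho1. Zfp518a (14.2 and 26.1 FPKM) and Zfp518b (21.5 and 25.9) were higher by less than 2-fold, and Zfp827 (7.73 and 3.86) was the only 1 of the 8 to reach 2-fold, at 2-fold lower. The median of the 8 was -0.27, close to that of all genes, of which 22.2% were at least 2-fold lower. Of these rows, Zfp518a, Zfp518b and Zfp827 have the status FAIL.

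The 4 measured members with work on RNA or ribosomes were the other list with more genes higher than lower. Zfp598, the ubiquitin ligase that marks collided ribosomes, was at 43.6 and 53.5 FPKM, and Zfp622 and Zfp593, both factors of the large ribosomal subunit, were at 30 and 36.8 and at 9.93 and 15.3 FPKM. Zfp830, a splicing-associated protein, was lower, at 15.5 and 12.2 FPKM. None reached 2-fold, where 22.2% of all genes were lower and 6.78% higher by that much and 65.9% were lower by any amount. The row of Zfp598 has the status FAIL, and 64.5% of the 50-base stretches of Zfp593 also occur in other genes. Zfp638 was not analysed here.

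**Figure D3:**
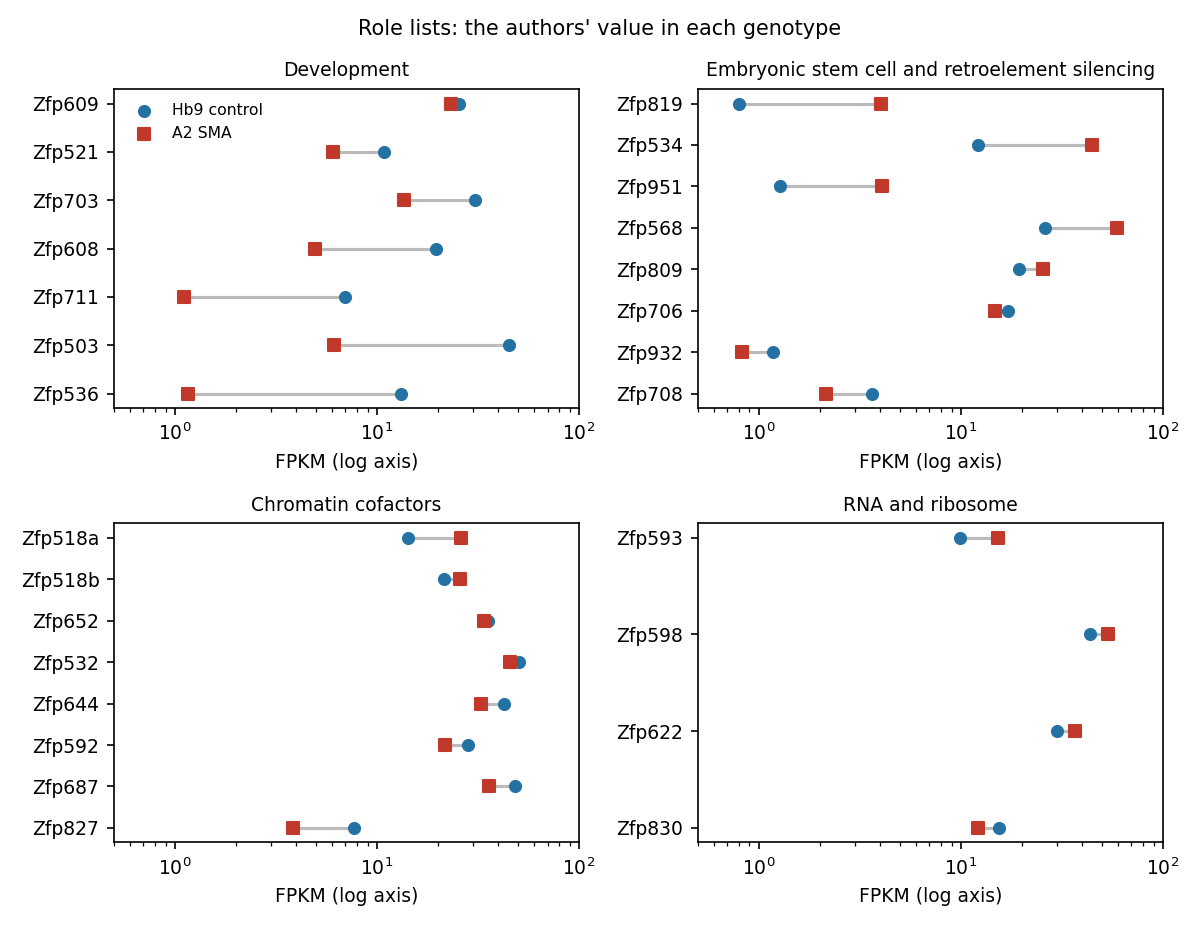
FPKM (x, log axis) in Hb9 control MNs (blue circles) and A2 SMA MNs (red squares) for the members of 4 role lists past the limit of 1 FPKM, 1 value per genotype. All 7 development genes have the red square on the left, and 4 of the 8 stem cell and silencing genes have it at least 2-fold to the right.

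The partners of the KRAB proteins covered a wide range of levels. Trim28 was at 1009 FPKM in Hb9 and 1897 in A2 (log2 ratio 0.91, status FAIL), over 8-fold above the most abundant member in Hb9. Setdb1 was at 40.3 and 40.7 FPKM (status FAIL). Of 22 corepressor and heterochromatin genes, 9 were higher and 13 lower, and none was 2-fold higher. Only 1, the NuRD helicase gene Chd3, was at least 2-fold lower (117 and 34.6 FPKM, status FAIL). Their median log2 ratio was -0.07, beside -0.50 for the members and -0.29 for all genes, of which 6.78% were at least 2-fold higher and 22.2% lower. The difference between the lists was not tested. The heterochromatin protein genes Cbx1 and Cbx5 were at 194 and 189 and at 107 and 94.1 FPKM, and Cbx3 at 6.7 and 4.59 FPKM, while Atrx (107 and 148), Daxx (59.4 and 86.7) and Morc3 (30.2 and 49.4), which act with them at retroelements, were higher by less than 2-fold.

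Members with a KRAB box had lower levels than those without, and similar median ratios. By the strict pattern, the 74 KRAB members past the filter had a median of 7.55 FPKM in Hb9 control MNs and the 88 without 14.5 FPKM, and by the wider pattern 94 had 5.78 and 68 had 21.2 FPKM. Only 6 of the 94 reached 20 FPKM in either genotype, against 36 of the 68. The median log2 ratios were nearly the same, -0.51 and -0.48 by the strict and -0.50 and -0.48 by the wider pattern. By the wider pattern, 20 KRAB members (21.3%) and 23 others (33.8%) were at least 2-fold lower, and 5 and 1 were at least 2-fold higher. The shares over all genes were 22.2% and 6.78%. Relative to the median gene, 8 KRAB members (8.51%) and 13 others (19.1%) were 2-fold lower, beside 16.5% of all genes. By the strict pattern the unscaled counts were 18 (24.3%) and 25 (28.4%) at least 2-fold lower, and 4 and 2 higher, and relative to the median gene 6 (8.11%) and 15 (17%) were lower. The share of KRAB members lower was 78.7% and of the others 83.8% by the wider pattern. The number of fingers, a median of 12 with and 7 without a KRAB box, had a Spearman rho of -0.04 with the log2 ratio over 162 genes of the same 2 pooled libraries. The median log2 ratio was -0.21 for the 15 members with 0 to 2 fingers, -0.48 for the 56 with 3 to 9 and -0.53 for the 91 with 10 or more.

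**Figure D4:**
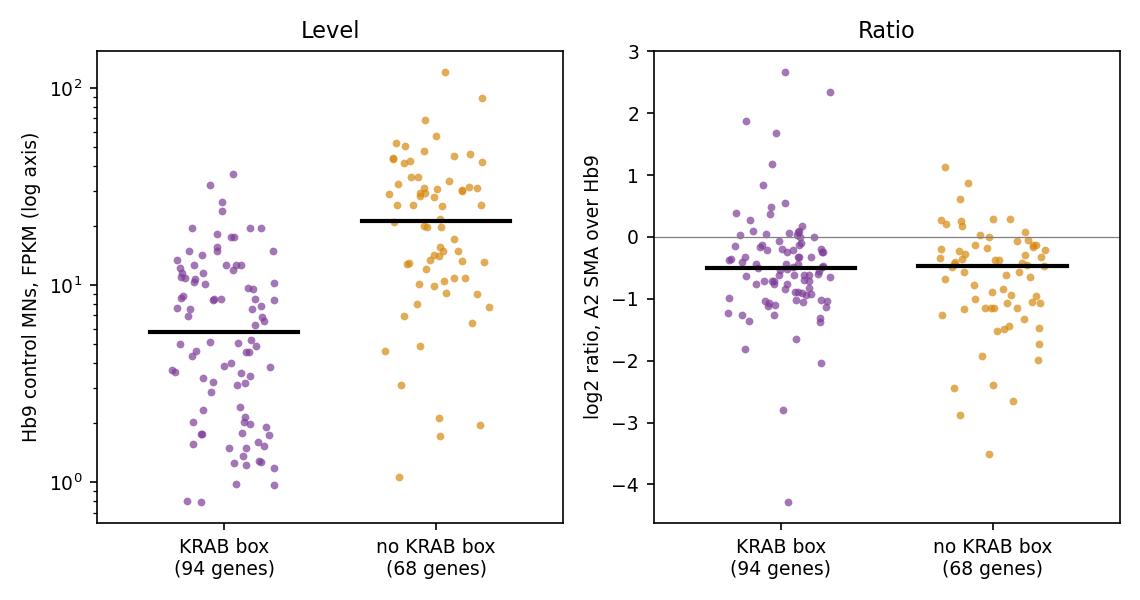
FPKM in Hb9 control MNs (left, log axis) and log2 ratio of A2 SMA over Hb9 (right) for the 94 members with and the 68 without a KRAB box by the wider pattern, 1 point per gene, with the median as a bar. The bars differ on the left, 5.78 and 21.2 FPKM, and lie together on the right, -0.50 and -0.48.

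Promoters differed with the level as well. RefSeq promoters (250 bases before to 50 after the start, build GRCm38.p6) were matched for 154 members by symbol, and the dinucleotide CG was counted on 1 strand, since it reads the same on both. Members had a median of 15 CG per promoter (range 2 to 59) where all genes had 7, and 35.1% of them had 20 or more where 26.3% of all genes did. At least 1 CG was present in 94.6% of all promoters. Members past the filter with fewer than 10 CG had a median of 3.86 FPKM in Hb9, those with 10 to 19 had 8.97 and those with 20 or more 13.8 FPKM. Their median log2 ratios were -0.38, -0.74 and -0.57, and 15.8%, 33.3% and 34.6% of them were at least 2-fold lower, where 22.2% of all genes were (Spearman rho of count and log2 ratio -0.15 over 138 genes of the same 2 pooled libraries). Shown with each CG in capitals are Zfp936 (chr7:43177340-43177639, plus strand, 6 CG) and Zfp819 (chr7:43606919-43607218, plus strand, 20 CG), the members with the highest ratios, and Zfp664 (chr5:124862455-124862754, plus strand, 39 CG), the most abundant in Hb9. Zfp936 and Zfp819 were both near 1 FPKM in Hb9 and over 5-fold higher in A2 with CG counts of 6 and 20.
Zfp936: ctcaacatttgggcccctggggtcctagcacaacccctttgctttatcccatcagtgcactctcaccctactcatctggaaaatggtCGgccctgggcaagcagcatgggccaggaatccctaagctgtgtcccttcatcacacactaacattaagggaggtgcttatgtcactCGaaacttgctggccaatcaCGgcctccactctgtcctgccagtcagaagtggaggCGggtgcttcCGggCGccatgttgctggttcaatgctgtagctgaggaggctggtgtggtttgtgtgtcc
Zfp819: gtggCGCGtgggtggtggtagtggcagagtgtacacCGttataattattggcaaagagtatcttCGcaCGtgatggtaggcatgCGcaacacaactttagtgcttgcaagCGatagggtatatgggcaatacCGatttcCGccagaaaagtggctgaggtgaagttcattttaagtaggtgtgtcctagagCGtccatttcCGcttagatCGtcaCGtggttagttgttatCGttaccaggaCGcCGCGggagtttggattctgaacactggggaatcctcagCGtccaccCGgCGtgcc
Zfp664: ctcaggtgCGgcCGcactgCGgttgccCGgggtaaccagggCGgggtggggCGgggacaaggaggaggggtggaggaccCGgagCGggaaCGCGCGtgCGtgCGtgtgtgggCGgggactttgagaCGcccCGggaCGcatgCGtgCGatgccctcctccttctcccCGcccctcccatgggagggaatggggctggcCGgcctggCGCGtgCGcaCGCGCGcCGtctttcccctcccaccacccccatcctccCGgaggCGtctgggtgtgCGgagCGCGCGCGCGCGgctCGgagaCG

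The members were spread over 19 chromosomes but concentrated on some. Chromosome 7 held 50 of the 183 (27.3%), where it held 8.14% of all gene symbols in the table, chromosome 17 held 24 (13.1% against 4.38%), chromosome 8 held 17 and chromosome 13 held 14. The median log2 ratio was -0.51 on chromosome 7 (48 past the filter, 12 at least 2-fold lower and 3 higher), -0.66 on chromosome 17 (22, with 5 and 0) and -0.52 on chromosome 8 (17, with 4 and 0), and all genes there had medians of -0.27, -0.25 and -0.33. At least 2-fold lower were 21.4%, 18.9% and 21.3% of all genes there and at least 2-fold higher 8.99%, 7.88% and 5.51%, so the counts of members lower were near these shares. On chromosomes 13 and 15 the members stood above all genes, with medians of -0.13 (11 members) and -0.21 (7 members) against -0.33 and -0.29. The chromosome 13 members were at low levels, and only Zfp748, named after its values were seen, reached 5 FPKM, at 5.06 in Hb9. Chromosome 11 had a median of -1.11 over 7 members, 4 of them at least 2-fold lower, where all genes there had -0.47 and 27.8% at least 2-fold lower. On chromosome 6 all 8 members were lower, with a median of -0.65, and Zfp783 and Zfp956 there share 1 row. The values of chromosomes 11 and 6 depend on the setting, and with status OK chromosome 11 was at -0.73 and chromosome 6 at -1.01.

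**Figure D5:**
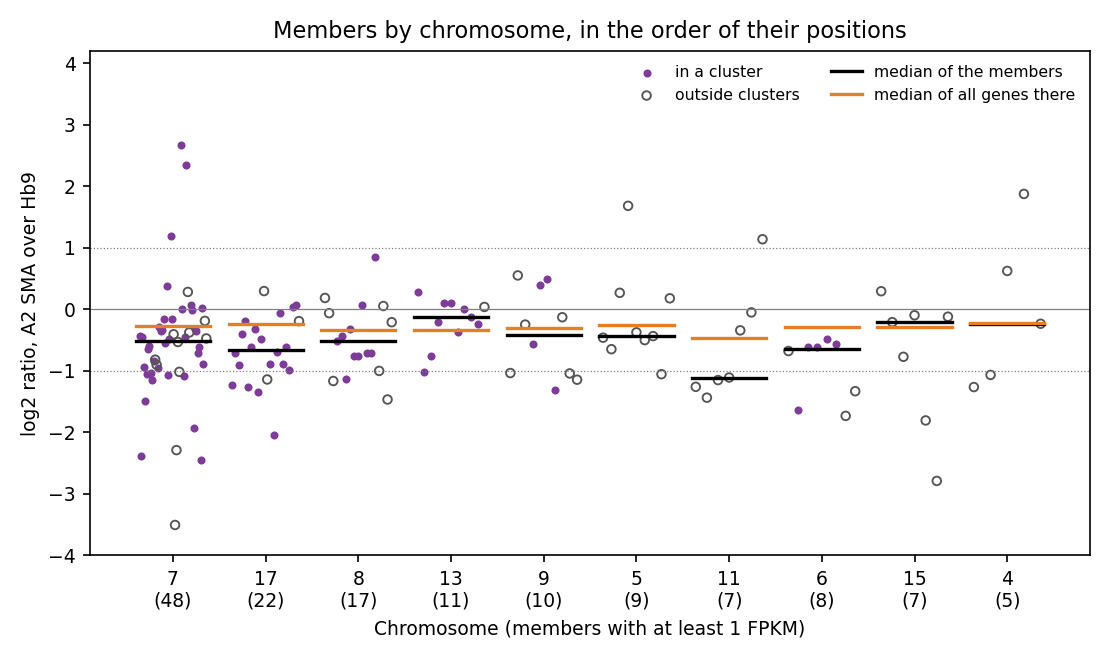
Log2 ratio of A2 SMA over Hb9 (y) of the members past the limit of 1 FPKM, in the order of their positions on each chromosome that has at least 5 of them (x, number in parentheses). Filled points are in clusters, black bars are medians of the members and orange bars medians of all genes there. The black bar lies below the orange one on chromosomes 7, 17 and 8 and above it on chromosomes 13 and 15.

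Members whose starts were at most 500 kb apart, with at least 3 in a row, formed 17 clusters that held 94 of the 183, 8 of them on chromosome 7. The 87 cluster members past the filter had a median log2 ratio of -0.57 and the 77 others -0.44, and at least 2-fold lower were 17 (19.5%) and 27 (35.1%), beside 22.2% of all genes. In 8 clusters every member past the filter was lower. A member at least 2-fold lower was present in 12 clusters and one at least 2-fold higher in 2, and both of these also held a member at least 2-fold lower. Coordinates are on NCBI m37, copied from the table.

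The largest cluster lay at chr17:21520711-23004194 with 11 members, all with a KRAB box by the wider pattern, and all 10 past the filter were lower, from -1.35 in Zfp946 (6.88 and 2.7 FPKM) to -0.19 in Zfp942 (5.12 and 4.48 FPKM). The 7 genes in that span with no Zfp symbol had a median of -1.26, with 6 of them lower, and the 5 other Zfp genes there had a median of -0.09. A second cluster on the chromosome, chr17:32902404-33440141, had 9 members with a median of -0.69 and 7 lower, from Zfp811 at -2.05 (23.7 and 5.74 FPKM) to Zfp955b at 0.07. At chr8:71732945-72331648 all 6 members were lower, from -1.14 in Zfp964 to -0.32 in Zfp869, though Zfp866 and Zfp963 share 1 row. At chr13:66771704-67788008, 9 of 10 members passed, with Hb9 levels of only 1.73 to 5.06 FPKM and ratios from -1.02 in Zfp712 to 0.10 in the row that names Zfp456, Zfp595 and Zfp953 together.

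Other clusters were split between neighbours. At chr7:50442539-50873716, a span of 431.2 kb, Zfp936 and Zfp819 at its ends had log2 ratios of 2.66 and 2.34, and Zfp658 between them -1.09 (3.72 and 1.74 FPKM). The other members there, Zfp715 (11 and 11.1 FPKM) and Zfp719 (12.7 and 9.3), named after their values were seen, differed by less than 2-fold. At chr7:30601090-30875529 Zfp568 was at 1.18 and Zfp790 at -1.07 (7.53 and 3.59 FPKM). At chr8:74405863-74533525 Zfp961 was at 0.85 and a row shared by Zfp617 and Zfp882 at -0.71. At chr9:21859903-22112101 Zfp599 (3.21 and 4.5 FPKM) was at 0.48 and Zfp810 at -1.31 (8.41 and 3.4 FPKM), with Zfp809 at 0.40. Ratios within a cluster thus differed by up to 3.76 on the log2 scale. That largest difference is between Zfp936 and Zfp658. Zfp936 (0.968 FPKM in Hb9) and Zfp819 (0.797) passed the limit only through A2, where they were high, so the size of this difference is uncertain.

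Other clusters held members that matched neither KRAB pattern. At chr7:4866815-5012474 none of 6 members matched a KRAB pattern. The 5 past the filter were all lower, from Zfp579 at -2.39 (29.4 and 5.6 FPKM, status FAIL) to Zfp628 at -0.44. At chr7:134376574-135039131, among 10 members, 4 of them with a KRAB box by the wider pattern, Zfp629 was at -2.45 and Zfp553 at 0.08 (30.9 and 32.6 FPKM), and 23 genes in the span with no Zfp symbol had a median of -0.31. At chr6:47769244-48036636 all 5 members were lower, though Zfp783 and Zfp956 share 1 row, from Zfp786 at -1.65 (1.59 and 0.509 FPKM) to Zfp777 at -0.49 (25.4 and 18.1 FPKM). Of these members 1 matched the wider pattern, and Zfp783 had no coding sequence to search.

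Sequence shared with other genes limits what single values can say, because the reads were 50 bases long. A stretch counted as shared if it occurs, on either strand, in a transcript of any other annotated gene. Overlapping transcripts at the same place therefore count as well as close copies. Of the 162 members past the filter with a transcript in GENCODE M21, 59 had no 50-base stretch in common with another gene and 14 had at least 30% of their stretches in common (median 0.641%). The 113 members under 5% had a median log2 ratio of -0.64, with 40 (35.4%) at least 2-fold lower and 4 higher. The 49 at 5% or more had a median of -0.33, with 3 (6.12%) lower and 2 higher. Of all genes 22.2% were lower and 6.78% higher by 2-fold. Genes that shared sequence thus had the smaller differences by these counts, which were not tested. Zfp955a and Zfp955b were the pair with the longest identical run in their coding sequences. Both were at 1.49 FPKM in Hb9, and at 1.53 and 1.56 in A2, and a run of 271 bases is identical in their coding sequences, at bases 318 to 588 of each. The run is given in full.
Zfp955a and Zfp955b: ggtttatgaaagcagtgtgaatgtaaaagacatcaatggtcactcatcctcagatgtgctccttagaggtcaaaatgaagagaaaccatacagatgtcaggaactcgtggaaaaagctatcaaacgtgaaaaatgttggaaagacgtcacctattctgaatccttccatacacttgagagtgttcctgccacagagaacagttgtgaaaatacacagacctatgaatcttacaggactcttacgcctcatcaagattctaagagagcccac

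The 19 members that did not pass the filter were low in both genotypes. Zfp616, Zfp640, Zfp735 and Zfp781 were listed at 0 in both, and Zfp648 at 0 in Hb9 and 0.025 FPKM in A2. The other 14 were above 0 and under 1 FPKM in both, up to 0.786 and 0.662 FPKM in Zfp931. No fold change is given for them, and nothing can be said of a difference at these levels.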

How the data were processed

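RNA from 3 samples of Hb9 control MNs and 3 of A2 SMA MNs was sequenced by the authors as single-end reads of 50 bases. According to the submitters' processing notes and the methods, reads were checked with FastQC 0.10.1, trimmed with cutadapt, mapped to NCBI m37 with its Ensembl annotation by TopHat2 2.04, assembled with Cufflinks and compared with Cuffdiff. The treatment of reads that match several genes and the library scaling are not given in the sources used here. The deposited FPKM values are 1 per genotype and gene, combined by the authors from the 3 samples. The number of reads behind a single value is not in the table, so no interval is given. The table also holds the authors' fold changes, test statistics, p-values and q-values, which were not used. No value of a single sample was used here.

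The gene column was split at commas, and for each symbol the row with the highest FPKM was taken (7 members had several rows). Log2 ratios of A2 SMA over Hb9 were formed without a pseudocount where the higher value was 1 FPKM or more and neither value was 0. At least 2-fold counted as called. The steps were tested on simulated data. Coding sequences came from GENCODE M21 (GRCm38), joined by symbol or synonym, and were translated with Biopython 1.88. The strict KRAB pattern was set with the rest of the design, and the wider pattern afterwards. Python 3.11.15, numpy 2.4.6, pandas 2.3.3, scipy 1.17.1 and matplotlib 3.10.9 were used. Named are the 6 highest and 6 lowest ratios, the 6 highest FPKM values, the role lists and the extremes of each cluster. The members and lists were chosen with earlier results of these data known. Alternatives were pseudocounts of 0.1 and 1 FPKM, other filters and scalings, single-gene rows, summed rows, the status OK, other fold limits and other cluster gaps. The wider KRAB pattern and the limit of 5% shared stretches were added after seeing the data.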

Additional observations from a re-analysis of the deposited data

How the results depend on the processing

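The medians over the whole set, by KRAB box and of Zfp1 to Zfp499 stayed below 0 under every setting tried, while some chromosome medians changed sign. Centred on the median gene, the median log2 ratio of the Zfp500 to Zfp999 genes was -0.21, of those with a KRAB box -0.23, of those without -0.19, of Zfp1 to Zfp499 -0.23, and of chromosomes 7, 6 and 13 -0.23, -0.36 and 0.16. Upper-quartile scaling gave -0.21, -0.22, -0.19, -0.23, -0.22, -0.36 and 0.16. Under both, 22 members in place of 44 were at least 2-fold lower and 65.2% were below 0. Both scalings move every ratio by nearly the same constant. Under them the medians of chromosome 15 (-0.21) and chromosome 4 (-0.24) also turned positive, to 0.07 and 0.05 centred and to 0.08 and 0.05 with the upper quartile. Chromosome 4, with 5 members past the filter, was at 0.19 with no filter and with status OK, and at -1.07 with single-gene rows. Chromosome 11 was at -0.63 with a pseudocount of 1 FPKM and -0.73 with status OK, and chromosome 6 at -1.01 with status OK. Chromosome 13 was at -0.0021 with no filter, -0.04 with summed rows and -0.21 with single-gene rows. The cause of these moves was not tested. With a pseudocount of 1 FPKM 24 members were at least 2-fold lower. A filter of 5 FPKM left 3 members at least 2-fold higher (Zfp534, Zfp568 and Zfp936). Limits of 1.5-fold and 4-fold gave 76 and 9 members lower, and 4-fold gave 2 higher. A pseudocount of 0.1 FPKM, no filter, single-gene rows, summed rows and status OK left the counts of members called within 1.5 times. So did the limit of 5% shared stretches. The wider KRAB pattern and the cluster gaps do not bear on the counts over the whole set. That pattern gave medians of -0.50 with and -0.48 without a KRAB box. Gaps of 250 kb and 1 Mb gave 15 and 18 clusters in place of 17. No paired analysis was possible because the table has 1 pooled value per genotype and its columns carry no replicate numbers, and for the same reason no sample could be left out. Values under 1 FPKM in either genotype, as in Zfp936, Zfp819 and Zfp663, are the least certain.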
